A study of Homo sapiens with 4 samples.

Results

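Metallothioneins are small proteins rich in cysteine, and the cysteine sulfurs hold zinc, copper and cadmium ions. Metallothionein RNA was examined in 2 established lines of human pancreatic cancer, SW1990 and PANC-1, sequenced without radiation (0 Gy) or after 10 Gy of X-rays. The genes MT1E, MT1F, MT1G, MT1M, MT1X and MT2A were chosen by name, and all 6 were found among the 58174 genes of the deposited table. There was 1 library for each line and treatment, 4 libraries in all, so no radiation difference within a line had a replicate check, and the lines were compared over the libraries of both treatments. The unirradiated and irradiated cells of a line carried no other treatment that the sample records name, and the time between radiation and RNA collection is not given in the sources used here. PANC-1 cells were grown in DMEM and SW1990 cells in 1640 medium, so that line and medium cannot be told apart. Total counts on genes were 17851815 (0 Gy) and 18305682 (10 Gy) for SW1990, and 23323266 (0 Gy) and 20026595 (10 Gy) for PANC-1. A floor of 3 counts corresponds at these totals to 0.129 to 0.168 CPM, the count as a share of its library, scaled up alike in each. Intervals given for single libraries and for pairs of libraries cover counting error only.

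In cells, metallothioneins buffer free zinc and copper and bind cadmium and mercury. Their genes are switched on by MTF1, a zinc finger factor that is activated when cellular zinc rises and that binds short metal response elements in their promoters, and several of them also respond to glucocorticoids and to oxidative stress. MT2A and the MT1 genes are the widely expressed forms, whereas MT3 is best known from brain and MT4 from squamous epithelium.

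The 6 genes lie within 76 kb of chromosome 16, on GRCh38. MT2A (ENSG00000125148) lies at chr16:56608199-56609497, MT1E (ENSG00000169715) at chr16:56625475-56627112, MT1M (ENSG00000205364) at chr16:56632233-56633986, MT1F (ENSG00000198417) at chr16:56657694-56660698 and MT1X (ENSG00000187193) at chr16:56682424-56684196, all on the plus strand. MT1G (ENSG00000125144) lies at chr16:56666731-56668065 on the minus strand. Each is a protein coding gene whose coding sequence spans 3 exons, with 61 codons before the stop, 20 of them for cysteine. The coding sequences of MT2A, MT1E and MT1X, which gave most reads of the group in each library, are shown from the GENCODE transcripts with the cysteine codons in capitals.
MT2A: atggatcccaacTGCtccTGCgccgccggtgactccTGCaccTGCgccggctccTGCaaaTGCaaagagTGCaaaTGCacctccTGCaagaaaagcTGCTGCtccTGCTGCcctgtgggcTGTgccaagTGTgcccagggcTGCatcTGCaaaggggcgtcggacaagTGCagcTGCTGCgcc
MT1E: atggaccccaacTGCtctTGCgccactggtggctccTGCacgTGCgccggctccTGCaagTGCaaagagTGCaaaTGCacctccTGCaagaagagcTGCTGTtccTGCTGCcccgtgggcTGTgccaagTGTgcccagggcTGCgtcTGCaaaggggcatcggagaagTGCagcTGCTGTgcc
MT1X: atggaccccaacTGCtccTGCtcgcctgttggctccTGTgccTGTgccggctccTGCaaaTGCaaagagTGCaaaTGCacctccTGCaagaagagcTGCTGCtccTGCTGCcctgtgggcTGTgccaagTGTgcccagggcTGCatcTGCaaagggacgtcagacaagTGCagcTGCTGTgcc
The cysteine codons stand at the same places in all 6 genes. Over 183 bases MT2A and MT1E were 92.3% identical, MT2A and MT1X 92.3%, and MT1E and MT1X 90.7%. Among all pairs of the 6 genes, identity ran from 88.5% (MT1F and MT1X) to 95.1% (MT1G and MT2A).

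This likeness bears on which gene a read was counted for. Of all stretches of 100 bases in the annotated transcripts of MT1E, MT1F, MT1G, MT1M and MT2A, 0% were also found in a transcript of another gene. For MT1X the share was 11.3%, and the gene in question, AC026461.1, overlaps MT1X on the same strand and had 0 counts in every library. Of stretches of 50 bases, 3.02% were shared for MT2A, 7.1% for MT1E, 18.3% for MT1X, 1.22% for MT1F, 9.87% for MT1M and 16.5% for MT1G. Counts of MT1X and MT1G are therefore the less certain ones, since neither the counting tool nor its treatment of reads with several matches is given in the sources used here.

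The promoters of MT2A and MT1X were the only ones of the 6 genes in the RefSeq promoter table used. They are shown for the 250 bases before the RefSeq start on GRCh38.p14, plus strand, with the letters TGCACNC or TGCGCNC, the core of the metal response element, in capitals wherever they occur on either strand. The RefSeq starts lie downstream of the gene starts given above. The MT2A window therefore lies within the annotated gene, and the MT1X window ends inside it.
MT2A, chr16:56608334-56608583: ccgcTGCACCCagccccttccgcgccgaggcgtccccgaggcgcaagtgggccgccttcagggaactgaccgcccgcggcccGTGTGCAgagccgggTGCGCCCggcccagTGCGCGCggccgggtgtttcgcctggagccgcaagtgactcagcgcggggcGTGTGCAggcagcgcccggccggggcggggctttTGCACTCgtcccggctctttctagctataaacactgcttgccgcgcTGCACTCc
MT1X, chr16:56682220-56682469: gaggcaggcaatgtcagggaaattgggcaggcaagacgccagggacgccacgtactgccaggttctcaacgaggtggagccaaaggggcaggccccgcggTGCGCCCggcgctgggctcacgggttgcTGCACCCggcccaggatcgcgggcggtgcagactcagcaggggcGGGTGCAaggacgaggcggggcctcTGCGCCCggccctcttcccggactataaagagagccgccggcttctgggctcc
The MT2A window held 7 matches, 5 on the plus and 2 on the minus strand. The MT1X window held 4, with 3 on the plus strand. Among 35116 promoter windows of the same length, 24.8% held at least 1 match, 0.37% at least 4 and 0.0313% at least 7. The window of MT1H, whose count was 0 in every library, held 8. A match describes the letters in the window and was not set against binding.

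MT2A, MT1E and MT1X were expressed in all 4 libraries, MT1F gave at most 21 reads in a library, and MT1G and MT1M gave few reads or none. MT2A, the most abundant metallothionein of many human cells, had 346 counts at 0 Gy and 335 at 10 Gy in SW1990 cells, and 5562 and 4795 counts in PANC-1 cells. Scaled to transcript length and depth, its FPKM was 20.1 and 19.2 in SW1990 cells and 250.2 and 248.1 in PANC-1 cells. Both PANC-1 libraries lay far above both SW1990 libraries, and within each line the values nearly coincided. Its FPKM ranked 4003 and 4140 among all genes in the SW1990 libraries and 177 and 165 in the PANC-1 libraries.

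MT1E had 403 and 380 counts in unirradiated and irradiated SW1990 cells and 1807 and 1984 counts in PANC-1 cells. Its FPKM was 26.7 and 24.7 in SW1990 cells and 90.0 and 113.9 in PANC-1 cells, so both PANC-1 libraries were again the higher ones. MT1X, a form that responds readily to zinc, had 152 and 66 counts in SW1990 cells and 266 and 225 counts in PANC-1 cells, with an FPKM of 13.6 and 6.17 against 19.6 and 19.2. The irradiated SW1990 library was the low one, and the other 3 lay within 1.44-fold of each other in FPKM.

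MT1F had 21 and 19 counts in SW1990 cells (FPKM 1.31 and 1.13), 0 in unirradiated PANC-1 cells and 4 in irradiated PANC-1 cells. MT1G, best known for its loss of expression in several carcinomas, had 7 counts in irradiated SW1990 cells (FPKM 0.658) and 0 in the other 3 libraries. MT1M had 0 counts in every library, which allows a level of up to 0.168 CPM in the shallowest one.

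The order of the 3 expressed genes differed between the lines. In SW1990 cells MT1E came first, with an FPKM of 26.7 (95% Poisson interval 24.1 to 29.4) without and 24.7 (22.3 to 27.3) with radiation. MT2A followed at 20.1 (18.0 to 22.3) and 19.2 (17.2 to 21.4), and MT1X at 13.6 (11.6 to 16.0) and 6.17 (4.78 to 7.86). In PANC-1 cells MT2A came first and MT1E second, at 90.0 (85.9 to 94.3) and 113.9 (109.0 to 119.0), with MT1X after them. None of the intervals of neighbours in these orders overlapped. MT2A made up 32.5% and 37.0% of the summed FPKM of the 6 genes in unirradiated and irradiated SW1990 cells, and 69.5% and 65.1% in PANC-1 cells. MT1X made up 22.1% and 11.9% in SW1990 cells and 5.45% and 5.03% in PANC-1 cells.
The summed FPKM of the 6 genes was 61.7 at 0 Gy and 51.9 at 10 Gy in SW1990 cells, and 359.8 and 381.3 in PANC-1 cells. PANC-1 cells thus held 5.84 times the summed FPKM of SW1990 cells without radiation and 7.35 times with it. The irradiated library held 0.841 times the sum of the unirradiated one in SW1990 cells and 1.06 times in PANC-1 cells, each from 1 library per condition. Over all 21 metallothionein genes the summed FPKM was 75.2 and 75.7 in SW1990 and 519.3 and 584.6 in PANC-1 cells. The lower FPKM sum of the 6 genes in irradiated SW1990 cells was thus not seen over the whole family. By counts the family went from 1038 to 1017 in SW1990 cells, although the total on genes was higher in the irradiated library. In such libraries of whole cultures, fewer expressing cells and less RNA per cell cannot be told apart.

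**Figure D1:**
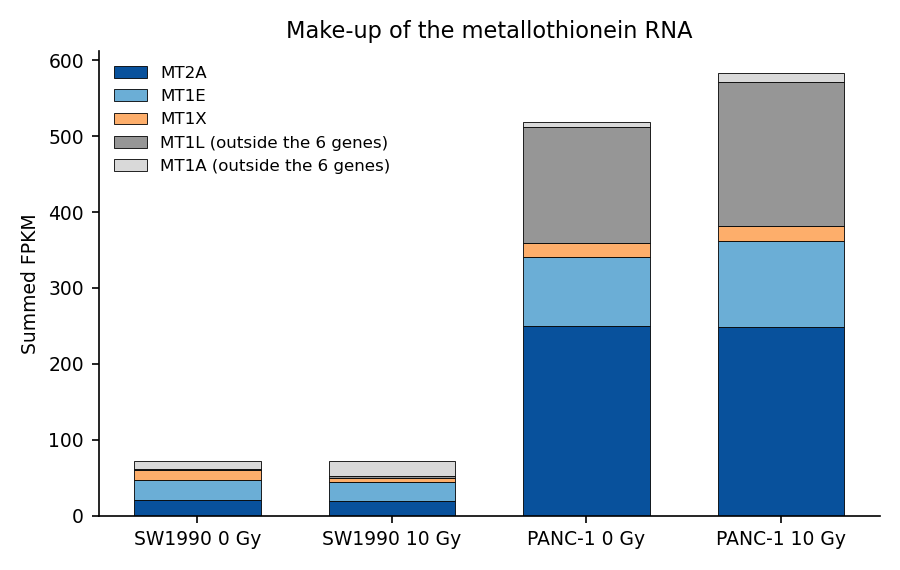
Summed FPKM of MT2A, MT1E and MT1X in each library, stacked from 0, with MT1L and MT1A, metallothionein genes outside the 6, on top. The PANC-1 columns are the taller ones, MT2A makes up most of the 6 genes' part there, and MT1L adds 152.4 and 190.2 FPKM in PANC-1 cells against 1.46 and 1.91 in SW1990 cells.

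PANC-1 and SW1990 cells were compared across both treatments. MT2A was higher in PANC-1 cells by a log2 fold change of 3.82 (14.1-fold, 95% interval 3.42 to 4.21 on the log2 scale), and MT1E by 2.17 (4.49-fold, 1.71 to 2.62). MT1X was 1.17 higher (0.19 to 2.14) and MT1F differed by -3.45 (-6.49 to -0.42), and neither passed the test. The fit was edgeR's quasi-likelihood test on all 4 libraries with treatment as a covariate and a single residual degree of freedom, so the libraries of both treatments served as the replicates of a line. The adjusted p was 0.000804 for MT2A and 0.00181 for MT1E, against 0.0609 for MT1X and 0.0691 for MT1F. MT1G and MT1M had too few counts to be tested. Of the 4 genes tested, 2 were thus called at an adjusted p below 0.05, both higher in PANC-1 cells. The background was large, with 43.6% of the 18180 genes tested called and 22.2% called higher in PANC-1 cells. By size, 6.1% of those genes had a larger log2 fold change than MT2A and 10.1% a larger one than MT1E, while the median of all genes was 0.00.

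**Figure D2:**
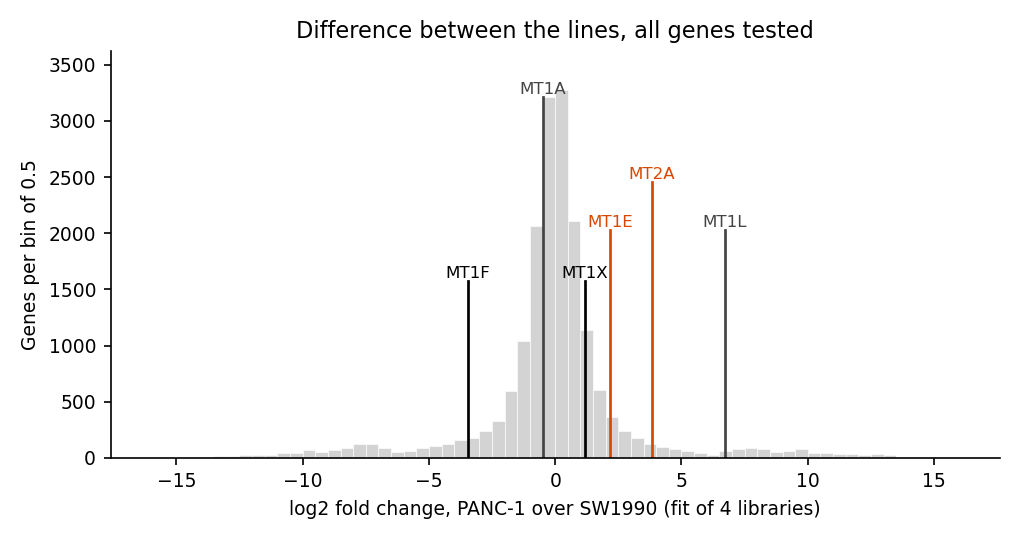
Number of genes per bin of 0.5 in the log2 fold change of PANC-1 over SW1990 cells, for the 18180 genes tested, with vertical lines at the metallothionein genes. MT2A (3.82) and MT1E (2.17), in orange, were called, MT1X (1.17) and MT1F (-3.45), in black, were not, and MT1L (6.72) and MT1A (-0.49), in dark grey, lie outside the 6 genes.

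The difference was then read within each treatment from the counts of 1 library per line. MT2A was 14.3-fold higher in PANC-1 cells without radiation (95% counting interval 12.8 to 16.0) and 13.8-fold higher with it (12.4 to 15.5). MT1E was 3.98-fold higher without (3.57 to 4.45) and 5.05-fold higher with radiation (4.52 to 5.65). In FPKM the ratios without and with radiation were 12.48 and 12.93 for MT2A, and 3.375 and 4.612 for MT1E. Those without radiation lay below the counting intervals, which do not cover the choice of scaling. For MT1X the ratio of scaled counts was 1.55 (1.27 to 1.91) without and 3.30 (2.50 to 4.41) with radiation. Thus 1 library, irradiated SW1990, moved it by more than 1.5 times. MT1F had 21 counts in SW1990 against 0 in PANC-1 cells without radiation. It was 9.14-fold higher in SW1990 cells when the 0 is set to the floor of 3 counts in that library, counting error left aside. The 95% counting interval of log2 PANC-1 over SW1990 had no lower limit and an upper one of -2.55, a ratio of 0.1705. With radiation it had 19 against 4 counts, a log2 fold change of -2.30 for PANC-1 over SW1990 cells (95% counting interval -4.31 to -0.71). The counting intervals of MT1F without and with radiation overlapped, so a difference between the treatments was not shown.

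After radiation, 1 of the 6 genes was called in SW1990 cells and none in PANC-1 cells. MT1X fell in SW1990 cells from 152 to 66 counts, a log2 fold change of -1.21 (95% counting interval -1.65 to -0.78, q = 2.9e-08). MT2A (-0.05, interval -0.27 to 0.17) and MT1E (-0.09, -0.30 to 0.11) had intervals that included 0 there, as did MT1F (-0.15, -1.13 to 0.82). The test was a conditional binomial test on the reads of the pair (edgeR), in which a gene was called when q was under 0.001 and the change over 2-fold. It compares the libraries, not the conditions. Of the 15731 genes tested in SW1990 cells, 4.2% were called and 1.95% were called lower, beside 1 of the 4 metallothioneins tested. When a coefficient of variation of 0.2 between replicates was assumed, the q-value of MT1X rose to 0.317 and the call was lost. In the same 2 libraries MT1A, a metallothionein gene outside the 6, went the other way, from 88 to 174 counts. Of the stretches of 50 bases of MT1A, 5.76% were shared with other genes, MT1X among them, and 0% of those of 100 bases. Whether reads were assigned differently between MT1X and MT1A in the 2 libraries was not tested.

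In PANC-1 cells MT1X went from 266 to 225 counts, a log2 fold change of -0.11 (-0.37 to 0.15). MT2A had a value of -0.08 (-0.14 to -0.03, q = 0.00784), which was 0.01 when the libraries were scaled by their totals, and MT1E one of 0.27 (0.17 to 0.36, q = 8.4e-08). The counting interval of MT1E excluded 0, yet its 1.2-fold change was below the limit of 2, and it was not called. MT1F, with 0 and 4 counts, was not tested. The background was 4.77% of 15159 genes called in this pair, beside 0 of the 3 metallothioneins tested, of which the binomial test gave an unadjusted p below 0.05 for MT2A and MT1E, as it did for 8646 of the 15159 genes.

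**Figure D3:**
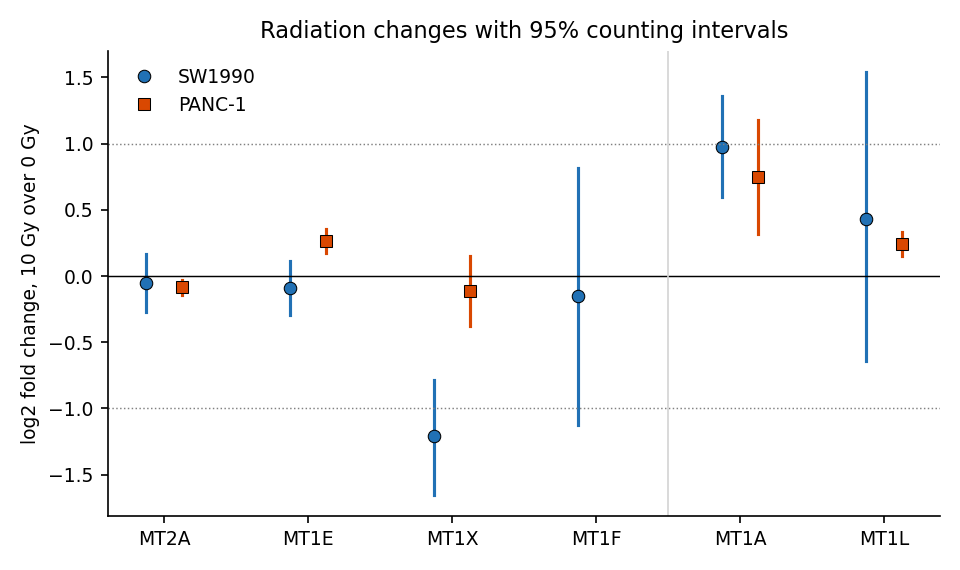
Log2 fold change of 10 Gy over 0 Gy in SW1990 (circles) and PANC-1 cells (squares), with bars for 95% counting intervals and dotted lines at a 2-fold change. MT1X in SW1990 cells (-1.21) is the single called value, and MT1A, right of the grey line with MT1L as genes outside the 6, lies at 0.98 and 0.75.

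The radiation change of MT1X differed between the lines. It was 1.10 higher in PANC-1 than in SW1990 cells on the log2 scale (95% counting interval 0.61 to 1.59, q = 4.1e-05, likelihood ratio test of the line by treatment term on the reads). For MT1E the difference was 0.36 (0.13 to 0.58, q = 0.00594) and for MT2A -0.03 (-0.25 to 0.19, q = 0.926), both short of the limits of 0.001 in q and 2-fold in size. MT1F, with 21 and 19 counts in SW1990 and 0 and 4 in PANC-1 cells, had a q of 0.0407 and was not called, and its fold is not given because of the 0. Of 17662 genes tested, 6.14% were called and 2.94% called in the direction of MT1X, beside 1 of 4 metallothioneins. The q-value of MT1X was 0.774 with an assumed coefficient of variation of 0.2. Over both lines together, the fit of 4 libraries gave a radiation change of -0.62 for MT1X (adjusted p = 0.936), 0.11 for MT1E (0.962) and -0.05 for MT2A (0.980). That fit called 0 genes of 18180, or 0% (833 had an unadjusted p below 0.05, and DESeq2 called 39), and 0 of the 4 metallothioneins tested.

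Of the 15 other metallothionein genes listed, only MT1L and MT1A had more than 10 counts in any library. MT1L (chr16:56617476-56618818), annotated as a transcribed pseudogene between MT2A and MT1E, had 14 and 19 counts in SW1990 cells and 1800 and 1944 in PANC-1 cells, with an FPKM of 1.46 and 1.91 against 152.4 and 190.2. It was called higher in PANC-1 cells by a log2 fold change of 6.72 (105-fold, 95% interval 6.15 to 7.29, adjusted p = 0.00076 by the quasi-likelihood fit of edgeR). Only 4.01% of the genes tested had a larger value. Its RNA was 29.4% and 32.5% of the FPKM of all 21 metallothionein genes in the PANC-1 libraries, against 1.94% and 2.53% in the SW1990 libraries. Of its stretches of 50 bases, 4.42% were shared with another gene, MT1P3, which had 0 or 1 count in each library, and none with MT2A or MT1E.

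MT1A (chr16:56638666-56640087), a protein coding gene between MT1M and MT1F, had more counts in the irradiated library of each line. It had 88 and 174 counts in SW1990 cells and 77 and 118 in PANC-1 cells. Its log2 fold change was 0.98 in SW1990 cells (0.60 to 1.36, q = 7.9e-07, binomial test) and 0.75 in PANC-1 cells (0.32 to 1.18, q = 0.00118), and neither was called, the first because its 1.97-fold change lay just under the limit of 2. Between the lines MT1A differed by -0.49 (adjusted p = 0.256). MT3 had 6 and 10 counts in SW1990 and 0 in PANC-1 cells, and MT1P1, a processed pseudogene on chromosome 9, had 2 to 7 counts in each library. MT1XP1, MT1DP, MT1JP, MT2P1 and MT1P3 had between 0 and 3 counts. MT1B, MT1H, MT4, MT1CP, MT1HL1 and MT1IP had 0 counts throughout.

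**Figure D4:**
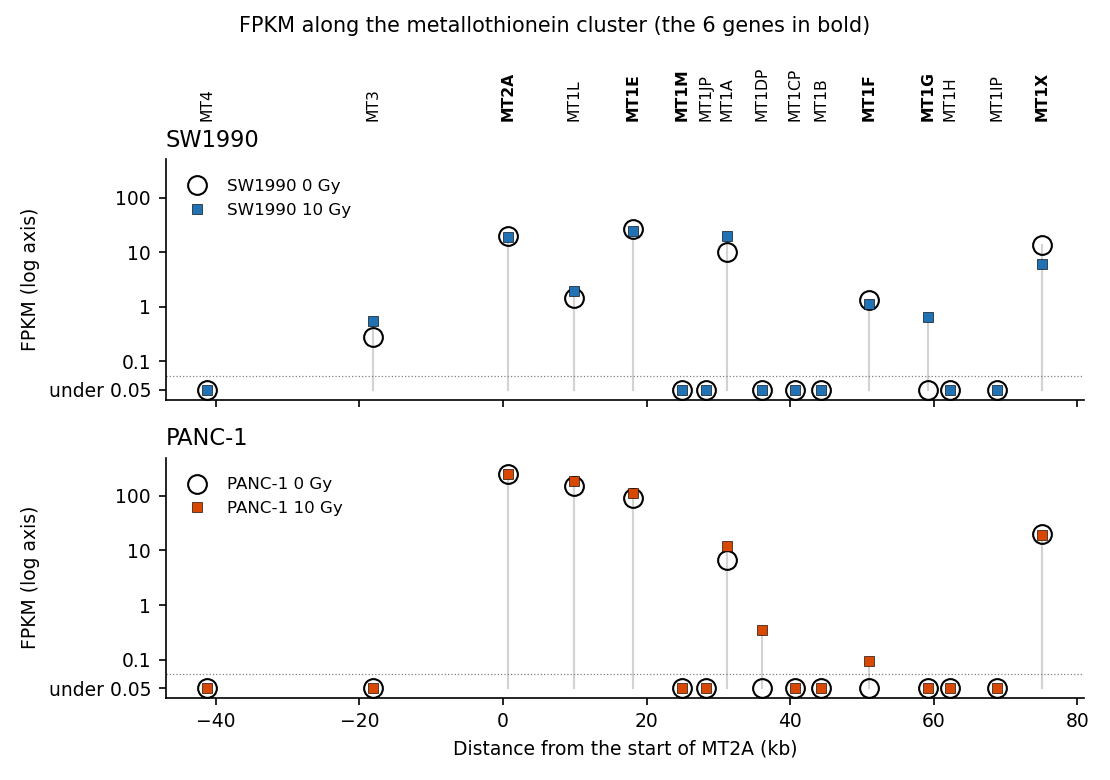
FPKM of each metallothionein gene of the cluster against its distance in kb from the start of MT2A, in SW1990 (upper) and PANC-1 cells (lower), with open circles for 0 Gy and filled squares for 10 Gy and values under 0.05 drawn below the dotted line. In PANC-1 cells MT2A, MT1L and MT1E stand next to each other as the 3 highest genes, and MT1M, between MT1E and MT1A, is at 0 in both lines.

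The genes around the cluster were examined for a change in the same direction. Within 500 kb, 11 other genes reached an FPKM of 1 in some library, and 0 of the 10 tested in each line were called after radiation, where 4.2% (SW1990) and 4.77% (PANC-1) of all genes were. By the size of their radiation change the first 4 were HERPUD1, a gene of the endoplasmic reticulum stress response (0.21 and -0.50 for SW1990 and PANC-1 on the log2 scale), FAM192A (0.20 and -0.44), AC012181.2 (0.51 and -0.11) and GNAO1 (0.25 in PANC-1 cells, with 0 counts in both SW1990 libraries). Between the lines 2 of the 11 were called higher in PANC-1 cells, GNAO1 and CPNE2, and 3 lower, NUDT21, NLRC5 and FAM192A, a share near the 43.6% of all genes called. CPNE2, NUDT21 and NLRC5 are named because they were called. NLRC5, an activator of MHC class I genes, had 705 and 806 counts in SW1990 cells and 16 and 55 in PANC-1 cells.

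Genes that sense, import or export metals were followed in the same comparisons. MTF1 had 1102 and 1019 counts in SW1990 cells and 1981 and 1288 in PANC-1 cells. Its log2 fold change was -0.12 (-0.24 to 0.00) and -0.49 (-0.59 to -0.39), and it was called in neither. In FPKM MTF1 went the other way in SW1990 cells, from 6.289 to 7.696, and fell from 9.301 to 6.872 in PANC-1 cells. SLC30A1, the zinc exporter of the cell surface and itself an MTF1 target, had 707 and 629 counts in SW1990 and 2052 and 1952 in PANC-1 cells. Its radiation changes were -0.18 (-0.33 to -0.02) and 0.06 (-0.03 to 0.15), also not called. Between the lines SLC30A1 was called higher in PANC-1 cells, by 1.48 (95% interval 1.07 to 1.88, edgeR adjusted p = 0.00334), as MT2A and MT1E were, whereas MTF1 was not (0.49, adjusted p = 0.0758). Of the 7 genes of metal-responsive transcription and zinc export tested between the lines, 3 were called higher in PANC-1 cells, SLC30A1, SLC30A4 and SLC30A6, and 1 lower, SLC30A9 (-1.38, adjusted p = 0.00493), beside 43.6% of all genes called. Of 11 zinc importers tested, 0 were called higher and 2 lower, SLC39A4 and SLC39A8. SLC30A4, SLC30A6, SLC30A9, SLC39A4 and SLC39A8 are named because they were called. Of the 11 transcription and zinc export genes listed, 7 were tested in each line and 0 were called after radiation, beside 4.2% and 4.77% of all genes. The median of those tested was 0.04 (SW1990) and 0.01 (PANC-1) in log2. The medians of all genes tested were -0.01 and -0.02.

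Among 14 zinc importers, 1 of 11 tested was called in SW1990 cells, where it rose, and 0 of 10 were called in PANC-1 cells, beside 4.2% and 4.77% of all genes. The called gene was SLC39A1, a zinc importer of the plasma membrane, with 626 and 2324 counts in SW1990 cells (log2 fold change 1.89, 1.76 to 2.02) and 760 and 1257 counts in PANC-1 cells (0.86, 0.73 to 0.99, not called). The list medians were 0.15 and 0.19. Among the copper and iron handling genes, 0 of 20 tested were called in SW1990 and 1 of 19 in PANC-1 cells, with medians of 0.19 and 0.04. Between the lines 8 of 21 tested were called higher in PANC-1 cells and 5 lower, beside 43.6% of all genes called. The 8 higher ones were COMMD1, COX17, STEAP1, STEAP3, TFRC, SLC11A2, ATP7A and ATP7B, and the 5 lower ones were the ferritin chains FTH1 and FTL, the dismutase SOD1, the iron exporter SLC40A1 and STEAP4, all named because they were called. The gene called in PANC-1 cells after radiation was SCO2, a copper chaperone of cytochrome c oxidase, in 1 of the 2 gene entries of that name, with 0 and 47 counts. The other SCO2 entry had 179 and 128 counts in PANC-1 cells and was not called, so the split of reads between the entries is uncertain.

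Other inducers of metallothionein were followed through their known targets. Of 10 glucocorticoid genes, 0 of 8 tested were called in SW1990 cells and 2 of 9 in PANC-1 cells, both lower, beside 4.2% and 4.77% of all genes called. ERRFI1, an inhibitor of the EGF receptor, had 13445 and 5992 counts in PANC-1 cells (log2 fold change -1.04, -1.08 to -0.99). TSC22D3, the glucocorticoid-induced leucine zipper, had 912 and 401 (-1.06, -1.23 to -0.88). Both values lay just past the 2-fold limit, and both intervals included smaller changes. In FPKM ERRFI1 went from 176.6 to 93.58, less than 2-fold, and TSC22D3 from 16.23 to 8.072. Scaling by library totals moved the median of all genes in this pair from -0.02 to 0.07. The 2 calls under that scaling are not given here. The list medians were 0.21 in SW1990 and -0.11 in PANC-1 cells. NR3C1, the glucocorticoid receptor itself, had 0 counts in both SW1990 libraries and 3704 and 3446 in the PANC-1 libraries. With each 0 set to the floor of 3 counts, it was 945-fold higher without and 1050-fold higher with radiation, counting error left aside. It is named after its values were seen. Between the lines 5 of 9 glucocorticoid genes were called higher in PANC-1 cells, NR3C1, DUSP1, SGK1, TSC22D3 and ERRFI1, and FKBP5 lower, beside the 43.6% of all genes called. DUSP1, SGK1 and FKBP5 are likewise named after their values were seen.
Of 12 oxidative stress targets, 0 were called in SW1990 and 1 in PANC-1 cells, SLC7A11, the cystine transporter, which fell from 5729 to 2321 counts (-1.17, -1.24 to -1.10), beside the same 4.2% and 4.77%. Their medians were -0.12 and 0.00. Between the lines 3 of the 12 were called higher in PANC-1 cells, ABCC1, SLC7A11 and HMOX1, and 6 lower, NQO1 (-3.05), TXN (-1.57), OSGIN1 (-1.19), GCLC (-1.06), TXNRD1 (-1.05) and GCLM (-0.67), beside 43.6% of all genes called. Apart from SLC7A11, they are named after their values were seen.

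The genes whose levels over the 4 libraries ran most like the mean of MT2A, MT1E and MT1X were sought by the distance between log2 CPM profiles, each centred on its own mean, among all genes that reached an FPKM of 1 in some library. The nearest were SLC38A4, an amino acid transporter (distance 0.0416), SLC36A4, another one (0.0947), ARFGAP3, a regulator of Golgi transport (0.117), AC016876.2 (0.126) and FUT11 (0.132). SLC38A4 had 14 and 8 counts in SW1990 and 101 and 98 in PANC-1 cells. MT1E lay at a distance of 0.350 from this mean, MT1X at 1.33 and MT2A at 1.46. The 5 genes were picked as the smallest distances of 17662, so nothing follows from their being closer. The profiles rest on 4 libraries and describe likeness only.

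The cells were checked against markers of the cell types a pancreatic culture could hold. All 6 ductal epithelial markers had an FPKM of at least 1 in every library, with KRT8 as the most abundant (1352 and 1888 in SW1990, 785.7 and 850.6 in PANC-1 cells) and summed levels of 2745, 3484, 1415 and 1652 FPKM in the order used above. Between the lines 1 of these 6 was called higher in PANC-1 cells, MUC1, and 3 lower, KRT8, KRT18 and EPCAM, beside 43.6% of all genes called. EPCAM, an epithelial adhesion molecule, had 7348 and 7552 counts in SW1990 and 108 and 113 in PANC-1 cells (log2 fold change -6.18). These markers are named after their values were seen, and their part in the metallothionein differences was not tested. Of 5 fibroblast markers, 1 reached an FPKM of 1, COL1A1 at 1.4 and 2.85 in SW1990 and 8.44 and 11.0 in PANC-1 cells, while DCN, COL1A2 and PDGFRA were at 0 in every library. The fibroblast sum was thus higher in PANC-1 cells (8.46 and 11.0 FPKM, against 1.4 and 2.85), in the direction of MT2A and MT1E, and its part in those differences was not tested. Of 5 leukocyte markers, CD68, which other cells also express, was the most abundant in PANC-1 cells (18.8 and 13.9), with a sum of 19.3 and 15.0 against 1.77 and 2.25 in SW1990 cells, and CD3E and MS4A1 were at 0 throughout. The 3 endothelial markers summed to at most 0.309 FPKM and the 3 acinar markers to at most 0.604, and the islet hormones INS and GCG were at 0.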

How the data were processed

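RNA of 4 cultures was sequenced, SW1990 and PANC-1 cells with 0 or 10 Gy, with 1 library each. The methods name a kit for mRNA libraries, whereas the labels call the RNA depleted of rRNA. The authors trimmed reads with Trimmomatic 0.36, aligned them to GRCh38 with HISAT2 2.0 and deposited an FPKM value per gene from StringTie 1.3.3b, with the versions taken from the submitters' processing notes. They also deposited read counts that were not normalized. The counting tool and its strand setting are not given in the sources used here. The 1089 table rows that name no gene held 0.453% to 0.635% of a library's counts and were left out.

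The tests were run on counts with edgeR 4.0.16 in R 4.3.3, with TMM scaling within the pair or over 4 libraries and Benjamini-Hochberg adjustment over all genes tested. Read tests took genes that reached an FPKM of 1 in either library and set 0 to 0.01, after the study's methods. The fit of 4 libraries used filterByExpr and estimated a common coefficient of variation of 0.218. Its intervals were derived from the F statistic. DESeq2 1.42.0 and limma 3.58.1 served in alternatives, with other scalings, filters, fold limits and assumed spreads. The tests were also run on simulated data, and no value from that run is used here. Pattern distances used a pseudocount of 0.5 CPM. GENCODE release 29 gave all 21 metallothionein genes the coordinates of the table.

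The 6 genes and the lists were chosen with earlier results of these data known. Named were the 6 genes, every list gene called after radiation, MTF1 and SLC30A1, 4 neighbours by mean change and the 5 nearest patterns. Exceptions are stated. Promoters came from RefSeq, matching 2 of the 6 genes.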

Additional observations from a re-analysis of the deposited data

Results flagged for a closer look

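The radiation change of MT1X stood out because it differed between the lines when the difference itself was tested, by 1.10 on the log2 scale, with 152 and 66 counts in SW1990 and 266 and 225 in PANC-1 cells. The comparison rests on 1 library per condition. With an assumed coefficient of variation of 0.2 between replicates, the call was lost.

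A row of the deposited table that names no gene lies at chr16:56638666-56640083, over nearly the same bases as MT1A, and was used in no comparison. It had 17 and 14 counts in unirradiated and irradiated SW1990 cells and 9 and 24 counts in PANC-1 cells, all above the floor of 3 counts. Whether these reads come from MT1A was not tested.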

How the results depend on the processing

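For the 4 genes tested (MT1E, MT1F, MT1X and MT2A, with MT1F not tested after radiation in PANC-1 cells), 107 values were recomputed under the alternatives, and 99 kept their direction and their side of the threshold. The 2 that changed sign were near 0: scaled by library totals, MT2A after radiation in PANC-1 cells came to 0.0058, and its difference of the radiation change between the lines to 0.0886, in log2. The same scaling moved the median of all genes for that difference from -0.01 to 0.10. MT1X was called after radiation in SW1990 cells in 7 of 9 settings, and in 3 of 4 for the difference of the radiation change between the lines. With an assumed coefficient of variation of 0.2 or 0.4, 0 of the 6 genes were called in SW1990 cells, and with 0.2, 0 were for the difference of the radiation change. MT2A and MT1E were called between the lines in all 7 settings. MT1F was called in 2 of 7, limma-voom (adjusted p = 0.0402) and the unirradiated libraries alone, and MT1X in 1 of 7, the irradiated libraries alone. In the unirradiated libraries MT1F passed the filter only through SW1990 cells, and its call set 21 counts against 0, so nothing is drawn from it.

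The number of all genes called after radiation, 661 in SW1990 and 723 in PANC-1 cells, moved to 305 and 319 with an FPKM of at least 5, to 1472 and 1794 with a fold above 1.5, to 99 and 103 with a coefficient of variation of 0.2 and to 15 and 10 with 0.4. The 1084 genes called for the difference of the radiation change became 102 with 0.2. For radiation over both lines DESeq2 called 39 genes in place of 0. Replicate numbers paired no libraries, since each group had 1, and the fit over both lines compared radiation within each line. MT1G and MT1M had too few counts to be tested, and MT1F had at most 21 counts in a library.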
